A study of Nicotiana benthamiana with 28 samples.

Results

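Among 28 RNA-seq libraries of Nicotiana benthamiana seedlings, 108 genes separated the 4 libraries of one receptor construct line from every other library. The line carries pRXEG1:RXEG1synΔ90-95/Q786AK791AΔCT-1 and is called the Δ90-95/Q786AK791A line here. A gene was taken when its mean was at least 1 TPM (transcripts scaled to 1e+06 per library) over the 28 libraries and the line's 4 values lay all above, or all below, the values of the other 24. Of the 36777 genes with that mean, 55 were higher (0.15%) and 53 lower (0.144%). The genes were thus chosen by the same values that show the line's difference, so that difference is described below and not tested. In whole seedlings, fewer cells of a type and less RNA per cell cannot be told apart. Its size is given as a gap, the distance on the log2(TPM + 1) scale between the line's library nearest to the others and the other library nearest to the line.

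All libraries came from 12-day-old seedlings given XEG1 protein or a mock treatment for 3 h, with 2 libraries in each of 14 groups, 7 genotypes by 2 treatments. The Δ90-95/Q786AK791A line and 3 more construct lines are labelled as the rxeg1 knockout mutant, and their titles add pRXEG1:RXEG1synΔCT-1 (ΔCT line 1), pRXEG1:RXEG1synΔCT-2 (ΔCT line 2) or pRXEG1:RXEG1synΔ90-95/Δ786-792ΔCT-1 (Δ90-95/Δ786-792 line). The genotypes without a construct were the rxeg1 knockout, the sobir1/sobir1-like knockout and wild type. The final number in a construct title was read as the number of a line. Only 1 line carried Δ90-95 with Q786A and K791A, so what belongs to the construct and what belongs to that line cannot be told apart.

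XEG1 is a cell wall-degrading glycoside hydrolase secreted by Phytophthora sojae. RXEG1 is a leucine-rich repeat receptor-like protein at the plant cell surface that recognises it. Such receptors lack a kinase domain of their own and signal together with the receptor-like kinase SOBIR1. The deposited files list genes by Niben101 identifiers and do not pair them with names, so no function is given for any gene, and the levels of RXEG1, SOBIR1 and the constructs were not checked.

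The 4 libraries of the line did not stand apart from the other 24 in their general properties. They listed 35137 to 36669 genes at 1 TPM or more, against 33443 to 37043 in the other libraries. Their 20 most abundant genes held 4.79% to 6.82% of all TPM, against 4.76% to 7.43%. The replicate pairs of the line correlated at 0.965 and 0.973 (Pearson, log2(TPM + 1) across genes), inside the range of 0.957 to 0.987 over all pairs. The wild-type XEG1 libraries did stand apart, with a median gene at 0.669 and 0.666 times its mean over all libraries, against 0.883 to 1.07 times in the line. TPM keep no sequencing depth, so the depth behind each value is unknown.

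The same rule applied to the other genotypes gave fewer genes, summed over both directions, in 5 of 6 cases. It gave 78 higher and 14 lower genes in ΔCT line 1, 18 and 1 in ΔCT line 2, 7 and 1 in rxeg1, 3 and 1 in the Δ90-95/Δ786-792 line, and 10 and 5 in sobir1/sobir1-like. In wild type it gave 137 and 467.

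Most gaps were small. Over the 55 higher genes the gap ranged from 0.0017 to 0.87 log2 units with a median of 0.039, and 10 genes had a gap of at least 0.1. Over the 53 lower genes it ranged from 0.0053 to 1.43 with a median of 0.10, and 27 had a gap of at least 0.1. A gap of at least 0.5 was left at 2 higher and 4 lower genes. At the edge of the rule, the last higher gene had 278 TPM in the line's lowest library and 277 TPM in the nearest other library, and the first gene outside it had 1.71 and 1.72 TPM. The last lower gene had 67.4 TPM in the line's highest library and 67.6 TPM in the nearest other library, and the first outside had 17.11 and 17.09 TPM. Another 117 genes failed to be higher, and 160 to be lower, because of 1 other library only.

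**Figure D1:**
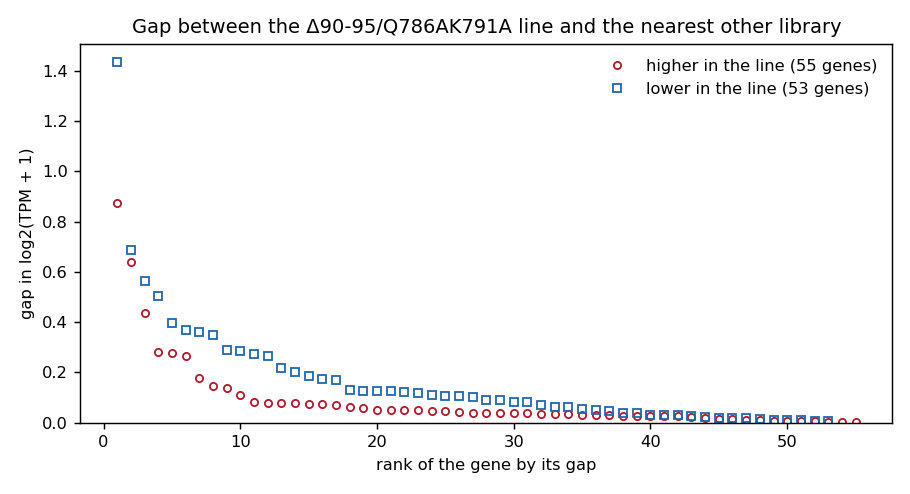
Gap in log2(TPM + 1) between the nearest library of the Δ90-95/Q786AK791A line and the nearest of the other 24 libraries (vertical axis) for each gene, ranked by its gap (horizontal axis), with the 55 higher genes as circles and the 53 lower genes as squares. 1 lower gene stands out at 1.43, and the medians are 0.039 for the higher and 0.10 for the lower genes.

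Measured by means instead of gaps, the higher genes had 1.19 to 10.2 times the mean TPM of the other 24 libraries, with a median of 1.39 times. 17 of the 55 had more than 1.5 times and 10 more than 2 times. The lower genes had 0.0787 to 0.858 times, with a median of 0.506 times, and 43 of the 53 lay beyond a factor of 1.5 and 25 beyond a factor of 2. By this measure lower genes differed by more than higher genes, with a median log2(TPM + 1) difference of -0.84 against 0.47. The median over all genes tested was -0.019. The rule itself bears on this, because a lower gene had to lie below the wild-type XEG1 libraries too. Their median gene was at 0.669 and 0.666 times its mean over all libraries. The comparison of sizes is therefore not read as a property of the 2 groups.

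Higher genes were mostly abundant and steady transcripts. In the other 24 libraries their median level was 37.3 TPM, and 40 of 55 had at least 10 TPM, against 45.9% of all genes tested. 16 of them had at least 100 TPM, against 4.76% of all genes tested. The lower genes had a median of 15.3 TPM in the other libraries, and 35 of 53 reached 10 TPM. The coefficient of variation over the other 24 libraries had a median of 16.7% for higher genes, 25.7% for lower genes and 26.3% for all genes tested. The rule itself favours steady genes, because any wide scatter among 24 libraries reaches the line's values. Summed, the higher genes made up 0.793% to 0.848% of TPM in the line and 0.400% to 0.730% in the others. The lower genes made up 0.0980% to 0.119% in the line and 0.161% to 0.379% in the others.

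The higher gene with the largest gap was Niben101Scf01005g05014. It had 17.0 and 17.2 TPM after XEG1 and 13.8 and 18.3 TPM in mock in the Δ90-95/Q786AK791A line, against 2.81 to 7.09 TPM with a median of 5.09 TPM in the other 24 libraries. The line's mean was 3.34 times that of the others, and the gap was 0.87. The nearest library was ΔCT line 2, XEG1 replicate 2, at 7.09 TPM. The remaining genotypes overlapped one another: ΔCT line 1 held 3.12 to 6.04 TPM, the Δ90-95/Δ786-792 line 4.16 to 5.56 TPM, rxeg1 4.31 to 7.002 TPM, sobir1/sobir1-like 4.83 to 6.60 TPM and wild type 2.81 to 5.26 TPM. None of the comparisons described further below called this gene.

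Niben101Scf00149g02017 had the second largest gap among the higher genes, but with unequal libraries. It had 15.3 and 3.88 TPM after XEG1 and 6.11 and 3.79 TPM in mock in the line, against 0.245 to 2.07 TPM with a median of 0.971 TPM in the others. The gap of 0.64 thus rests on values near 3.8 TPM, while 1 library was 2.50 times the next highest. Wild type held the lowest values of this gene, 0.245 to 0.607 TPM, and ΔCT line 1, XEG1 replicate 2, was nearest at 2.07 TPM.

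That library, XEG1 replicate 1 of the line, was far above its 3 companions for a small group of genes. In 7 of the 55 higher genes the highest value of the line was more than 2 times the second, and in all 7 it came from that library. There the 7 genes had 4.66 to 19.1 TPM with a median of 10.1 TPM, which was 2.02 to 5.42 times the second highest library of the line. In the other 3 libraries of the line they had 1.24 to 6.11 TPM, and in the remaining genotypes 0 to 3.73 TPM. In all 7 the second highest library of the line was mock replicate 1. The mean of the 3 companion libraries was 1.75 to 4.46 times that of the other genotypes, and that it lies above 1 follows from the rule. Among all genes tested, 36 were more than 2 times higher in that library than in any of the other 27, and the same count for each of the other 27 libraries ran from 0 to 67 with a median of 0. 5 of the 7 genes were among the 12 with the largest gaps, so the top of the higher group leans on them. No lower gene had such a single value.

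1 of these 7 genes had the largest ratio of means in the whole group, and it is named here after its values were seen. Niben101Scf00090g13009 had 19.1 and 1.70 TPM after XEG1 and 3.52 and 2.05 TPM in mock in the line, against 0.191 to 1.22 TPM in the others. Its 10.2-fold ratio of means comes mostly from 1 library, and its gap was 0.28. It is 1 of 3 higher genes, all among these 7, that averaged under 1 TPM in the other 24 libraries and would have missed the minimum without XEG1 replicate 1 of the line. Without these 3 the highest ratio of means was 7.05. A different pattern was seen at Niben101Scf02060g07009, ranked 5 by its gap and likewise chosen after its values were seen. It had 46.6 and 50.3 TPM after XEG1 and 52.3 and 46.5 TPM in mock in the line, against 15.4 to 38.2 TPM with a median of 31.7 TPM in the others. All 4 libraries of the line lay close together there, and the line's mean was 1.58 times that of the others. The most abundant higher gene, Niben101Scf05824g12005, also picked out afterwards, had 989 TPM on average in the line and 821 TPM in the other 24 libraries, a 1.21-fold ratio with a gap of 0.021.

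Among the lower genes Niben101Scf01926g00002 had by far the largest gap, 1.43. It had 3.38 and 4.07 TPM after XEG1 and 4.02 and 1.07 TPM in mock in the line, against 12.7 to 31.1 TPM with a median of 23.4 TPM in the others. The line's mean was 0.135 times that of the others. The other 3 construct lines did not share this: ΔCT line 1 held 16.5 to 22.0 TPM, ΔCT line 2 19.0 to 22.5 TPM and the Δ90-95/Δ786-792 line 23.4 to 30.1 TPM, beside 22.0 to 25.7 TPM in rxeg1 and 23.6 to 29.4 TPM in sobir1/sobir1-like. The nearest values to the line came from XEG1-treated wild type, at 15.0 and 12.7 TPM, against 30.1 and 31.1 TPM in mock-treated wild type.

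Niben101Scf09044g01012 had the second largest gap among the lower genes, 0.69, and a wide spread outside the line. It had 25.3 and 14.3 TPM after XEG1 and 27.7 and 13.7 TPM in mock in the line, against 45.2 to 274 TPM with a median of 129 TPM in the others. Both ΔCT lines lay towards the low end, with 58.0 to 97.7 TPM in ΔCT line 1 and 45.2 to 133 TPM in ΔCT line 2. The Δ90-95/Δ786-792 line held 83.7 to 274 TPM, rxeg1 113 to 223 TPM, sobir1/sobir1-like 124 to 261 TPM and wild type 127 to 236 TPM.

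**Figure D2:**
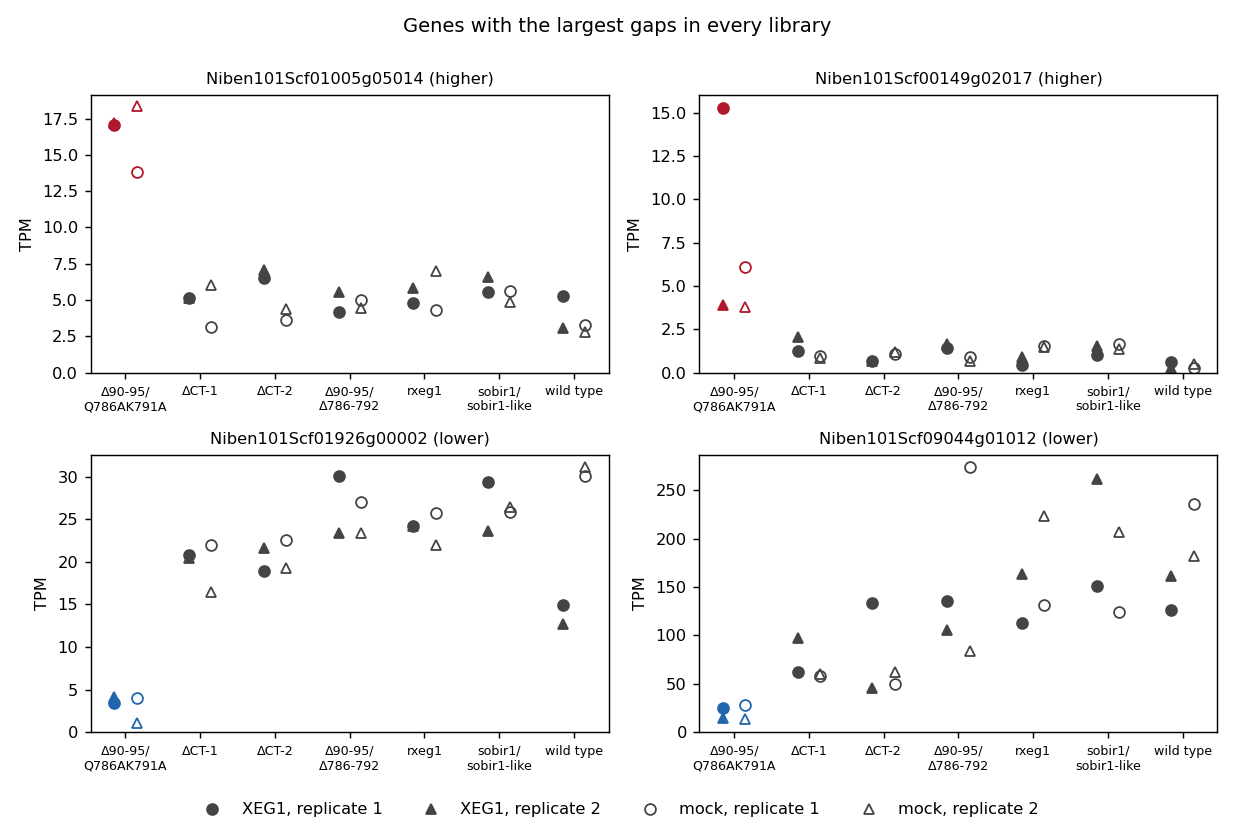
TPM (vertical axes) of the 2 higher and the 2 lower genes with the largest gaps in each of the 28 libraries, by genotype (horizontal axes), with XEG1 libraries filled, mock libraries open, replicate 1 as circles and replicate 2 as triangles. The line's 4 values are coloured and lie beyond all 24 others in each panel, and 1 XEG1 library at 15.3 TPM stands above its 3 companions for Niben101Scf00149g02017.

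3 more lower genes show how the group varied, all chosen after their values were seen. Niben101Scf04053g02007 was abundant, with 144 and 121 TPM after XEG1 and 148 and 64.8 TPM in mock in the line, against 219 to 1161 TPM with a median of 431 TPM in the others. ΔCT line 1 was nearest there and wild type farthest. Niben101Scf05491g09004 had the smallest ratio of means, 0.0787, at a low level. It had 0.208 and 0.312 TPM after XEG1 and 0.237 and 0.253 TPM in mock in the line, against 0.585 to 6.47 TPM in the others. Niben101Scf01642g03011 had 4.40 and 2.10 TPM after XEG1 and 2.58 and 1.81 TPM in mock in the line, against 6.66 to 21.3 TPM in the others. ΔCT line 1 was nearest to the line for this gene, at 6.66 to 13.2 TPM.

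Within the line, mock replicate 2 was most often the lowest library. It held the lowest of the line's 4 values for 28 of the 53 lower genes and for 23 of the 55 higher genes, which for higher genes made it most often the closest to the other genotypes. The coefficient of variation over the line's 4 libraries had a median of 6.83% for higher genes and 13.97% for lower genes. No library of the line was listed at 0 for any of the 108 genes. Outside the line 1 higher gene was listed at 0 in 1 wild-type XEG1 library.

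Across the 7 genotypes, ΔCT line 1 was most often nearest to the line. By mean log2(TPM + 1) it was the nearest genotype for 35 of 55 higher and 31 of 53 lower genes, and wild type was the farthest for 46 and 25. The next most frequent nearest genotype was sobir1/sobir1-like for higher genes (10) and ΔCT line 2 for lower genes (9). The Δ90-95/Δ786-792 line, which shares the Δ90-95 deletion in its title, was nearest for 6 higher and 0 lower genes. These counts use unscaled values, on which the wild-type XEG1 libraries stood low as a whole. No share over all genes tested is given beside them, so they are not read as a property of these genes. Taking each gene's deviation from its median over the other 24 libraries, the line's libraries had medians of 0.37 to 0.50 for higher and -0.80 to -0.65 for lower genes. In ΔCT line 1 the medians were 0.07 to 0.20 and -0.30 to -0.09, while all genes tested were at -0.03 to 0.09 in its libraries.

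Of the remaining genotypes, ΔCT line 2 overlapped with ΔCT line 1 for both higher and lower genes. The Δ90-95/Δ786-792 line, and wild type by its mock replicate 2, overlapped with it for higher genes only. In rxeg1 and sobir1/sobir1-like no library reached its range in either group. In ΔCT line 2 the medians were -0.05 to 0.18 for higher and -0.18 to 0.04 for lower genes, with both replicate 2 libraries the lower ones for lower genes. In the Δ90-95/Δ786-792 line they were -0.01 to 0.09 and -0.01 to 0.06, in rxeg1 -0.10 to -0.05 and 0.03 to 0.11, and in sobir1/sobir1-like -0.09 to 0.05 and -0.01 to 0.21. The wild-type XEG1 libraries were at -0.44 and -0.53 for higher genes, where all genes tested were at -0.48 in both, and at 0.25 and 0.09 for lower genes. Mock-treated wild type was at -0.23 and 0.07 for higher genes and at 0.23 and 0.0038 for lower genes.

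**Figure D3:**
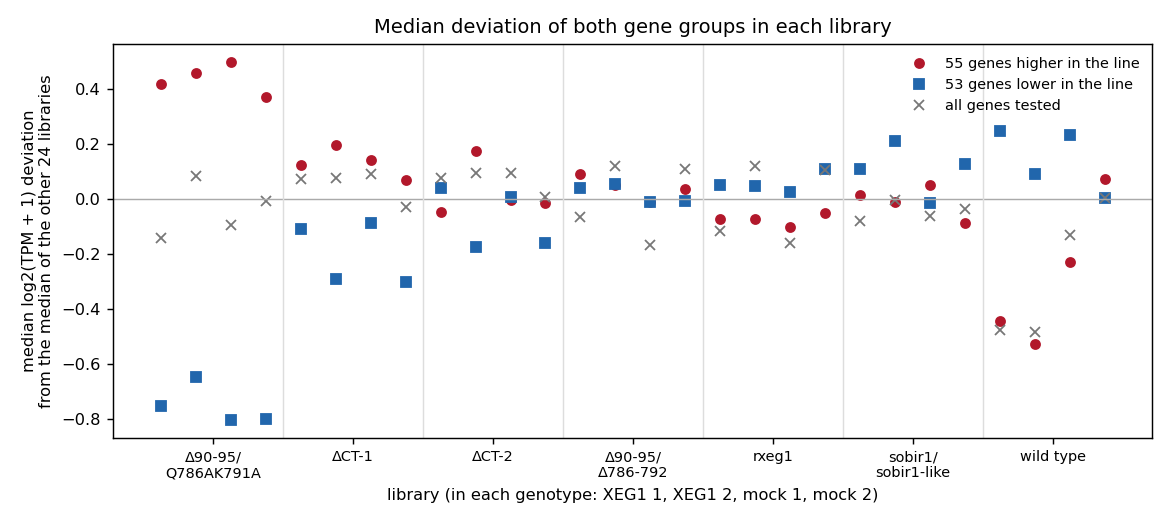
Median log2(TPM + 1) deviation (vertical axis) of the 55 higher genes (circles), the 53 lower genes (squares) and all genes tested (crosses) from each gene's median over the 24 libraries outside the line, for each library by genotype (horizontal axis). On this unscaled axis the 4 libraries of ΔCT line 1 are above 0 for higher genes and below 0 for lower genes, with lower-gene medians of -0.30 to -0.09.

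Which genes meet the rule depends on how libraries are scaled. When each library was divided by its median ratio to the mean library, 26 of the 55 higher and 27 of the 53 lower genes still met it, while 150 others became higher and 43 others lower. Genes with large gaps were kept more often, 9 of 10 higher and 20 of 27 lower genes with a gap of at least 0.1. All 4 genes with the largest gaps were kept, with gaps of 0.85 for Niben101Scf01005g05014, 0.66 for Niben101Scf00149g02017, 1.74 for Niben101Scf01926g00002 and 0.47 for Niben101Scf09044g01012. Of the genes named further below, Niben101Scf01947g01008 (-0.064), Niben101Scf00063g08002 (-0.077) and Niben101Scf01959g01001 (-0.13) no longer met the rule, a negative gap being an overlap, nor did Niben101Scf05824g12005 named above (-0.17). The wild-type XEG1 libraries bear on the lower group in particular: without both of them 142 genes were lower and 59 higher. Leaving out libraries eases the rule, so counts tend to rise.

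The 108 genes lay on 104 of the 8347 scaffolds or contigs with tested genes, and no scaffold held more than 2. On 2 scaffolds the pair were neighbours among tested genes with the same direction, and these 4 genes are named after their values were seen. Niben101Scf02335g04009 had 69.3 and 69.6 TPM after XEG1 and 70.4 and 66.4 TPM in mock in the line, against 20.4 to 61.4 TPM in the others. Beside it Niben101Scf02335g04010 had 24.9 and 26.5 TPM after XEG1 and 28.5 and 24.7 TPM in mock in the line, against 8.01 to 23.9 TPM in the others. Both genes of this pair were higher in all 4 libraries of the line. The lower pair was Niben101Scf02363g00010, with 8.44 to 14.7 TPM in the line and 16.6 to 28.1 TPM in the others, and Niben101Scf02363g00011, with 18.8 to 37.6 TPM and 45.4 to 67.6 TPM. Whether adjacent genes of a pair share reads cannot be seen from TPM.

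Neighbouring genes outside the 2 groups leaned little in the line's direction. Of 87 tested neighbours of higher genes, 46 (52.9%) had a mean above that of the other libraries, where 46.8% of all genes tested did. Of 73 neighbours of lower genes, 43 (58.9%) were below, where 53.2% of all genes did. The median log2 differences of these neighbours were 0.016 and -0.050.

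Whether the same genes also differed between other genotypes was asked by differences that leave out the line's own values. Each genotype's 4 libraries were compared with the 4 of rxeg1 by limma on log2(TPM + 1), in a fit of all 14 groups with Benjamini-Hochberg adjustment over 36777 genes, and an adjusted p under 0.05 was called. These comparisons share the rxeg1 libraries. Their libraries are not independent of the choice of genes: the rule used the highest or lowest of the 24 values, and so keeps every genotype on the same side of the line. The line's libraries also enter the fit's estimate of spread, and the rule favours steady genes. For ΔCT line 1 the median SE was 0.12 for higher genes, 0.157 for lower genes and 0.1655 for all genes tested. Shares called among members and among all genes are therefore not on equal terms.

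ΔCT line 1 differed from rxeg1 in the line's direction at 13 of the 108 genes and in the opposite direction at 0. Of the higher genes 8 of 55 (14.5%) rose, and of the lower genes 5 of 53 (9.43%) fell, where 8.35% of all genes were called. In the matching direction the background was 3.9% of all genes for rises and 4.45% for falls. The log2 difference was above 0 for 51 of 55 higher genes with a median of 0.19, and below 0 for 44 of 53 lower genes with a median of -0.26. Of all 36777 genes tested 21857 were above 0, with a median of 0.08. With median-ratio scaling 3 higher genes rose and 9 lower genes fell, where 9.81% of all genes were called, and the medians were 0.09, -0.34 and -0.0090 for all genes tested.

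The largest called rise in ΔCT line 1 was at Niben101Scf03088g01003, an abundant transcript. It had 663 and 631 TPM after XEG1 and 610 and 649 TPM in mock in ΔCT line 1, against 424 and 343 TPM after XEG1 and 466 and 471 TPM in mock in rxeg1. The groups did not overlap, and the log2 difference was 0.59 (SE 0.12, limma adjusted p 0.00942). The Δ90-95/Q786AK791A line was higher still, at 700 to 767 TPM. Niben101Scf00090g08011 also rose, with 15.7 to 17.1 TPM in ΔCT line 1 and 7.91 to 13.4 TPM in rxeg1 (log2 difference 0.56, SE 0.16, limma adjusted p 0.0406). In the Δ90-95/Q786AK791A line it had 18.1 to 20.4 TPM.

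Among called lower genes, the largest falls in ΔCT line 1 were at 2 genes whose rxeg1 replicates differed. Niben101Scf01947g01008 had 6.53 and 3.89 TPM after XEG1 and 7.06 and 3.92 TPM in mock in ΔCT line 1, against 8.99 and 16.1 TPM after XEG1 and 11.0 and 17.0 TPM in mock in rxeg1. Its log2 difference was -1.16 (SE 0.27, limma adjusted p 0.0144), and in the Δ90-95/Q786AK791A line it had 1.68 to 3.56 TPM. Niben101Scf01959g01001 had 9.37 and 7.24 TPM after XEG1 and 9.81 and 7.002 TPM in mock in ΔCT line 1, against 15.9 and 24.3 TPM after XEG1 and 13.2 and 25.8 TPM in mock in rxeg1. Here the log2 difference was -1.11 (SE 0.21, limma adjusted p 0.00520), with 3.22 to 6.72 TPM in the Δ90-95/Q786AK791A line. Niben101Scf09044g01012 had a log2 difference of -1.16 that was not called (SE 0.37, limma adjusted p 0.0572). At both called genes the groups did not overlap, and in rxeg1 replicate 2 was the higher library under both treatments.

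The calls depended on how such covariation was handled. In rxeg1 the deviations of the replicates from their group means correlated at 0.732 between XEG1 and mock libraries, across genes, so the 4 libraries hold less than 4 independent values. Averaging the libraries with the same number in each genotype left 0 of the 55 and 0 of the 53 genes called in ΔCT line 1 and 6 of all genes. The adjusted p was then 0.0692 for Niben101Scf03088g01003, 0.154 for Niben101Scf00090g08011, 0.113 for Niben101Scf01947g01008 and 0.0825 for Niben101Scf01959g01001. Averaging also leaves fewer values per genotype, and how much of this loss follows from covariation was not tested. In ΔCT line 1 itself the correlation was -0.016. With the replicate number as an additive term more genes were called in ΔCT line 1, members included, as given in the last section. A fit of only the compared groups called far fewer of all genes in ΔCT line 1, also given there. Single libraries also moved the counts. In ΔCT line 1, 0 higher genes, 1 lower gene and 349 of all genes were called without mock replicate 2, 2, 3 and 681 without XEG1 replicate 1, and 2, 2 and 1341 without XEG1 replicate 2, against 8, 5 and 3071 with all libraries. Leaving out mock replicate 1 of ΔCT line 1, or mock or XEG1 replicate 2 of rxeg1, gave more lower genes. Leaving out mock or XEG1 replicate 1 of rxeg1 left fewer of all genes called. The range of counts over all genes is given in the last section. Whether the lower genes moved apart from that range was not tested. Without mock replicate 2 of ΔCT line 1 the calls at Niben101Scf03088g01003 (adjusted p 0.0600), Niben101Scf00090g08011 (0.134) and Niben101Scf01947g01008 (0.104) were lost.

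**Figure D4:**
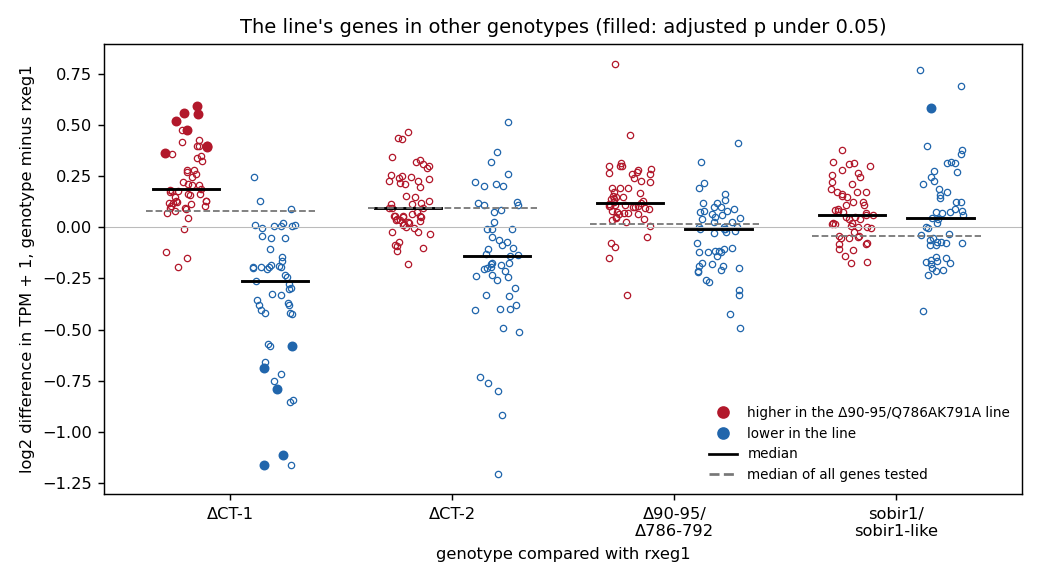
Log2 difference in TPM + 1 between each other genotype and rxeg1 (vertical axis) for the 55 higher genes (left of each pair) and the 53 lower genes (right of each pair), by genotype (horizontal axis), with called genes filled, group medians as black lines and the median of all genes tested as a dashed line. The medians in ΔCT line 1 are 0.19 and -0.26, and 8 and 5 genes are filled there.

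In the other genotypes limma called 1 of the 108 genes in all. In ΔCT line 2 it called 0, where 0.0544% of all genes were called. The medians were 0.09 for higher genes, as for all genes tested (0.09), and -0.14 for lower genes, or -0.019 and -0.26 with median-ratio scaling. At an unadjusted p under 0.05 there were 10 higher genes, 13 lower genes and 5873 of all 36777 genes tested. The log2 difference was above 0 for 45 of 55 higher and 15 of 53 lower genes, where 23469 of all genes tested were above 0. In the Δ90-95/Δ786-792 line it called 0 members and 0.00544% of all genes, with medians of 0.12 and -0.0095. There 50 of 55 higher genes were above 0, where 20347 of all 36777 genes tested were. With median-ratio scaling the medians were 0.10 and -0.03. In sobir1/sobir1-like it called 1 member and 0.0571% of all genes. The log2 difference was above 0 for 40 of 55 higher and 30 of 53 lower genes, where 14597 of all genes tested were above 0. The medians were 0.06 and 0.04, or 0.11 and 0.09 with median-ratio scaling. For the higher genes the scaled medians of these 2 genotypes were thus no smaller than that of ΔCT line 1. The called member was the lower gene Niben101Scf05670g00003, which rose in sobir1/sobir1-like. It had 33.0 and 35.3 TPM after XEG1 and 32.4 and 33.2 TPM in mock in sobir1/sobir1-like, against 19.2 and 22.7 TPM after XEG1 and 24.03 and 22.3 TPM in mock in rxeg1 (log2 difference 0.58, SE 0.083, limma adjusted p 0.00412). The direction is opposite to the Δ90-95/Q786AK791A line, where it had 12.5 to 14.8 TPM. Averaging libraries of the same number ended that call (adjusted p 0.337). Between mock-treated rxeg1 and mock-treated wild type 0 members and 0.0299% of all genes were called.

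No XEG1 effect was called at the 108 genes in their own line. The rule bears on this, since it leaves out any gene that XEG1 brought back among the other libraries' values. In the Δ90-95/Q786AK791A line limma called 0 members and 0% of all genes for XEG1 against mock. At an unadjusted p under 0.05 there were 0 higher genes, 1 lower gene and 1290 genes in all. The median log2 change was 0.0067 for higher and 0.09 for lower genes, and 0.015 for all genes tested. Without XEG1 replicate 2 of the line 3 higher genes and 17 of all genes were called. In rxeg1, likewise, limma called 0 members and 0% of all genes, with 0 higher genes, 1 lower gene and 254 genes in all at an unadjusted p under 0.05. For the difference between the response of the line and that of rxeg1, limma called 0 members and 0% of all genes, with 1 higher gene, 0 lower genes and 396 genes in all at an unadjusted p under 0.05. Within the line, the deviations of same-numbered XEG1 and mock libraries correlated at 0.499 across genes. A replicate block within each genotype called some genes outside the 108 for XEG1 in the line, as given in the last section.

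In wild type, where 48.4% of all genes were called, XEG1 moved 50 of the 108 genes. Among higher genes 31 fell and 1 rose, with a median log2 change of -0.45, against -0.39 for all genes tested. Among lower genes 14 rose and 4 fell, with a median of 0.11. The background was 36.4% of genes for falls and 11.9% for rises. The rule keeps out any gene whose wild-type XEG1 values reach the line's range, so strong rises of higher genes and strong falls of lower genes are under-represented, and these counts are not read as a property of the members. Median-ratio scaling moved the median of all genes to 0.017. It then called 2 rises and 7 falls among higher genes and 28 rises and 1 fall among lower genes, where 39.3% of all genes were called. Leaving out mock or XEG1 replicate 2 of wild type left fewer higher genes called, and also fewer of all genes.

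The 2 largest rises in wild type were at lower genes. Niben101Scf01947g01008, described above for ΔCT line 1, had 114 and 156 TPM after XEG1 and 24.3 and 13.5 TPM in mock in wild type (log2 change 2.81, SE 0.38, limma adjusted p 7.10e-06). In the Δ90-95/Q786AK791A line it had 2.49 and 1.93 TPM after XEG1 and 3.56 and 1.68 TPM in mock. The XEG1 and mock values overlapped in the line, where the gene was lower than in any wild-type library. Niben101Scf00063g08002 had 67.9 and 55.5 TPM after XEG1 and 12.6 and 9.01 TPM in mock in wild type (log2 change 2.42, SE 0.19, limma adjusted p 7.01e-09). In the line it had 5.33 and 6.19 TPM after XEG1 and 6.54 and 4.86 TPM in mock. In every genotype other than wild type this gene stayed at or below 11.8 TPM under both treatments.

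The 2 largest falls in wild type were at 1 higher and 1 lower gene. Niben101Scf02903g04002, a higher gene, had 6.36 and 6.51 TPM after XEG1 and 36.0 and 37.4 TPM in mock in wild type (log2 change -2.34, SE 0.37, limma adjusted p 4.38e-05). In the line it had 51.4 and 58.1 TPM after XEG1 and 60.6 and 42.5 TPM in mock, and mock-treated wild type was its nearest neighbour. Niben101Scf14771g01015, a lower gene, had 6.97 and 5.38 TPM after XEG1 and 34.5 and 29.8 TPM in mock in wild type (log2 change -2.21, SE 0.38, limma adjusted p 9.55e-05). In the line it had 2.98 and 3.85 TPM after XEG1 and 3.05 and 2.88 TPM in mock, and the XEG1-treated wild-type library at 5.38 TPM was nearest to it. Niben101Scf01926g00002, the lower gene with the largest gap, also fell in wild type (log2 change -1.09, SE 0.27, limma adjusted p 0.00235), and its log2 change in the line was 0.55 (SE 0.27, limma adjusted p 1).

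The XEG1 response of the line differed from that of wild type at 31 of the 108 genes, where 29.9% of all genes were called. Among higher genes 17 had a higher log2 response in the line and 0 a lower one, with a median difference of 0.54, against 0.39 for all genes tested. Among lower genes 3 had a higher and 11 a lower response, with a median of -0.08. The background was 21.8% for higher and 8.07% for lower responses. With median-ratio scaling 2 higher genes had a higher and 1 a lower response, and 1 lower gene had a higher and 15 a lower response, where 23.4% of all genes were called. Leaving out mock or XEG1 replicate 2 of wild type, or XEG1 replicate 2 of the line, left fewer lower genes called. Calls over all genes moved as well when 1 library was left out, as given in the last section. At the 4 genes above, the difference was -2.94 for Niben101Scf01947g01008 (SE 0.53, limma adjusted p 0.000439), -2.40 for Niben101Scf00063g08002 (SE 0.27, limma adjusted p 2.54e-06), 2.45 for Niben101Scf02903g04002 (SE 0.52, limma adjusted p 0.00175) and 2.36 for Niben101Scf14771g01015 (SE 0.53, limma adjusted p 0.00269).

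**Figure D5:**
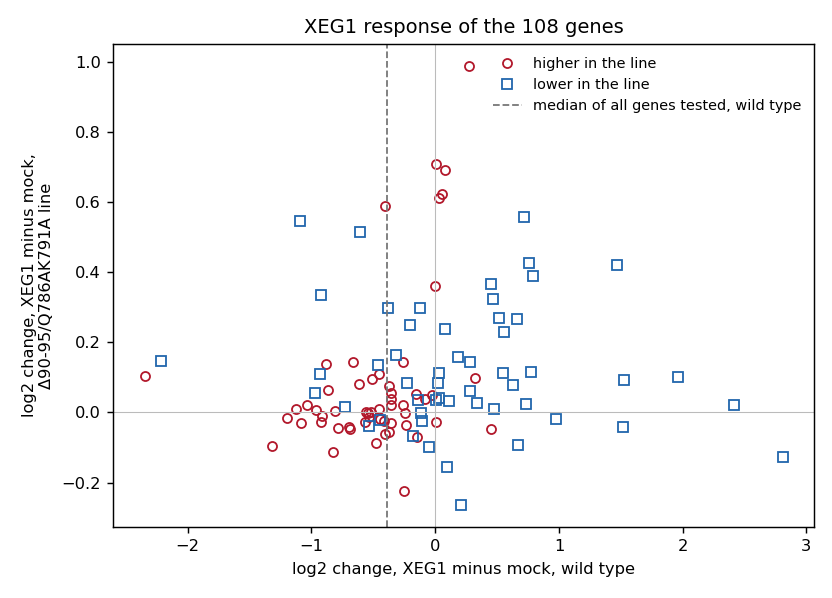
Log2 change of TPM + 1 from XEG1 in the Δ90-95/Q786AK791A line (vertical axis) and in wild type (horizontal axis) for the 55 higher genes (circles) and the 53 lower genes (squares), with the wild-type median of all genes tested, -0.39, as a dashed line. Wild-type changes run from -2.34 to 2.81, and changes in the line span a narrower range in which limma called 0 genes.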

How the data were processed

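Per the labels' protocols, seedling RNA was isolated with an Omega kit, and 1.0 µg per library went into the MGIEasy RNA kit, version 3.0. Per the submitters' processing notes, HISAT2 version 2.0.4 was used. The genome build, annotation and counting step stand in none of the sources used here. The authors deposited TPM per gene and library, scaled to a total of 1e+06. Counts are not part of what was analysed, so depth is unknown and no count model was run. The combined table was not used here.

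The 28 libraries were grouped by labelled genotype and treatment, with EV in titles and mock in the treatment label taken as 1 control. Replicates are not said to come from separate plants, so p-values cover the spread of these libraries alone, which may be technical. limma 3.58.1 (R 4.3.3, trend and robust options) was fitted to log2(TPM + 1), a scale that understates changes at low levels, for the 36777 genes averaging 1 TPM or more, with 14 group means, 14 residual degrees of freedom and Benjamini-Hochberg adjustment. It was tested on simulated data with independent noise in each library, so that check does not cover replicates that vary together. Named genes are the 2 with the largest gap in each direction and at most 2 called members each way per comparison, beside those said to be chosen afterwards. The members and comparisons were chosen with earlier results of these data known. Alternatives were a pseudocount of 0.1, no filter, median-ratio scaling, only the compared groups, replicate blocks, leaving out each library, and for the rule itself other minimum levels and gaps. Replicate numbers were not taken as pairing.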

Additional observations from a re-analysis of the deposited data

Results flagged for a closer look

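The XEG1 response differed between the Δ90-95/Q786AK791A line and wild type, by limma's test of the difference itself, at 17 of the 55 higher genes and 14 of the 53 lower genes, which is 30.9% and 26.4% where 29.9% of all genes tested were called. These shares are near that background. With median-ratio scaling the higher genes called were 3 (5.45%), where 23.4% of all genes were called, and the wild-type values compared are among those the rule used. Among the genes named, the log2 difference of the response was 2.45 for Niben101Scf02903g04002, 2.36 for Niben101Scf14771g01015, -2.94 for Niben101Scf01947g01008 and -2.40 for Niben101Scf00063g08002. In each of these 4 genes both XEG1 libraries lay outside the mock range in wild type, while the XEG1 and mock ranges overlapped in the line.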

How the results depend on the processing

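With no minimum level 91 genes were higher, with a minimum gap of 0.5 2 higher and 4 lower, with median-ratio scaling 176 higher, and without both wild-type XEG1 libraries 142 lower. Leaving out 1 library gave 55 to 168 higher and 53 to 232 lower genes. A rule of no overlap is eased by leaving out any library, so rises follow from the rule itself. Each of the line's own libraries weighs more in it than 1 of the others. The extremes were the line's own libraries: without XEG1 replicate 1, 168 higher and 88 lower, without XEG1 replicate 2, 122 and 232, without mock replicate 1, 67 and 85, and without mock replicate 2, 146 and 75. Over all genes tested, counts of calls moved by over 1.5 times as follows. Only the compared groups gave 2 for XEG1 in the line, 1 for its response against rxeg1, 20 for ΔCT line 1, 8 for ΔCT line 2, 0 for the Δ90-95/Δ786-792 line, 2 for sobir1/sobir1-like and 1 for mock rxeg1 against wild type. No filter gave 4 for XEG1 in the line, 1 in rxeg1, 38 for ΔCT line 2, 6 for the Δ90-95/Δ786-792 line and 22 for mock rxeg1 against wild type. A pseudocount of 0.1 gave 5 for ΔCT line 2, and scaling gave 2 for XEG1 in the line and 7 for the Δ90-95/Δ786-792 line.

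The labels do not say that replicate numbers pair libraries, and the correlation of same-numbered XEG1 and mock deviations ran from -0.0164 in ΔCT line 1 to 0.732 in rxeg1, with 0.598 between the Δ90-95/Q786AK791A line and rxeg1 and 0.683 between the Δ90-95/Δ786-792 line and rxeg1 for same-numbered libraries. Not every pair exceeded 0.1, so counts with the replicate block in the fit are given here only. As an additive term it gave 57 genes for XEG1 in the line, 5579 for ΔCT line 1 (13 higher and 14 lower members), 621 for ΔCT line 2 and 8 for the Δ90-95/Δ786-792 line. As a replicate block within each genotype it gave 75 for XEG1 in the line, 0 of them among the 108 genes, and 16630 for its response against wild type. With averaged pairs, chosen after seeing the data, the replicate block gave 6, 1, 1 and 1 for ΔCT line 1, ΔCT line 2, the Δ90-95/Δ786-792 line and sobir1/sobir1-like. Leaving out 1 library gave 0 to 17 for XEG1 in the line, 12475 to 15465 in wild type, 0 to 2 in rxeg1, 7318 to 11069 for the response against wild type, 0 to 5 against rxeg1, 349 to 4358 for ΔCT line 1, 2 to 14 for ΔCT line 2, 1 to 7 for the Δ90-95/Δ786-792 line, 15 to 21 for sobir1/sobir1-like and 1 to 6 for mock rxeg1 against wild type. Of 166 alternatives to the 13 log2 values of named genes, 145 kept the direction and the call and 21 kept the direction only, and these 21 concern ΔCT line 1 and sobir1/sobir1-like. The cause of these moves was not tested.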
